A study of Mus musculus with 8 samples.

Results

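The Eph receptor genes Epha2, Epha7, Epha8, Epha10 and Ephb2 lie on mouse chromosome 4, the chromosome that the deposited table holds. They were taken by name, and each gene's replication timing score is the mean of the 5 kb bins that overlap it in mm10. All 5 were measured, out of 1301 protein-coding genes with a score among 1328 on the chromosome. The data are Repli-seq profiles of mouse embryonic stem cells (mESC), in which BrdU, a thymidine analog, marks newly made DNA for 2 h, cells are sorted into early and late S phase, and the BrdU-carrying DNA is sequenced. The control group is JM8N4, a line of such cells, and the other group is labelled Klf4 enhancer deletion. Klf4 encodes a transcription factor of naive pluripotency. Each group has 2 profiles, and each profile joins 1 early and 1 late library, for 8 libraries in all from 40000 cells per fraction. The labels do not say whether a replicate was another culture or clone, whether the deletion line is a single clone, whether the deletion is on both alleles, or where the deleted segment lies, so the spread between profiles may be technical. The series question is whether the enhancer's loss goes with another replication time. The Eph genes lie 26.6 Mb (Epha7), 69.3 Mb (Epha10), 81.1 Mb (Ephb2), 81.4 Mb (Epha8) and 85.8 Mb (Epha2) from Klf4.

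Eph receptors are the largest family of receptor tyrosine kinases. They bind ephrins that are tethered to the surface of a neighbouring cell, so they signal at cell contacts and guide axons, sort cells and form tissue boundaries. EphA receptors bind mostly ephrin-A ligands, which are anchored by a lipid, and EphB receptors bind mostly transmembrane ephrin-B ligands. Replication timing is a property of large chromosome domains. Gene-rich, open chromatin tends to replicate early, and gene-poor regions late.

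Scores have no unit, and a higher score was read as earlier replication. That direction was taken from gene content, because bins with a mean control score above 0 made up 45.6% of the measured chromosome while 79.7% of genes scored above 0 in every profile. A relation of timing with gene content over all genes is therefore no independent result here. Read counts are not part of the table, and the depth behind each score is unknown. Scores were missing from all profiles at 639 of 31301 positions, and from the deletion profiles only at another 3. Klf4 itself scored 2.24 and 2.73 in the control profiles against 1.77 and 2.89 in the deletion profiles. This does not check the labels, since the timing score of a gene does not show the deletion. Whether the 3 positions missing only from the deletion profiles bear on the deletion was not tested. Every profile had an interquartile range of 4.598. Where 2 values of a group follow, replicate 1 stands before replicate 2.

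Sequence upstream of the genes is shown first, because CG steps are a feature of promoters that the choice of genes did not use. The letters come from RefSeq (GRCm38.p6, the assembly of mm10). They run 5′ to 3′ on the gene's own strand and stop before its annotated start, with every CG in capitals. The stretches are chr4:28812881-28813065 (plus strand) for Epha7, chr4:136956860-136957066 (minus strand) for Epha8 and chr4:141300971-141301220 (plus strand) for Epha2.
Epha7: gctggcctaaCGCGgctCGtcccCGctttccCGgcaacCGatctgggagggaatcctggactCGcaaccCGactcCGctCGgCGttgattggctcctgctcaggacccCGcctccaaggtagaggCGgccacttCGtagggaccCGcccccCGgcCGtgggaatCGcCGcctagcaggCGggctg
Epha8: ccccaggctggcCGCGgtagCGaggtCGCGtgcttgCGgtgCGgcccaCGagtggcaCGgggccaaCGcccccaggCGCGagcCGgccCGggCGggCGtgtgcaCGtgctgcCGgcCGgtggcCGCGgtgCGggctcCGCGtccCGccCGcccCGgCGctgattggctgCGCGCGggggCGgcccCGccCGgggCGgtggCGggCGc
Epha2: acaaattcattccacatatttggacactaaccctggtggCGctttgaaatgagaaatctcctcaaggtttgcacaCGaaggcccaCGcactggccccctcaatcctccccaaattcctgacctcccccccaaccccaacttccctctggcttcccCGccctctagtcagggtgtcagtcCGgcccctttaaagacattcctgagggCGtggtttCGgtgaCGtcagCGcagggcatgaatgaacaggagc
Epha7, the late gene of the set, holds 20 CG steps in the 185 bases shown, Epha8 holds 37 in 207, and Epha2 holds 9 in 250. Counted over RefSeq's full window of 300 bases, from 250 before to 50 after the first-listed start, the numbers were 28 for Epha7, 56 for Epha8, 10 for Epha2, 21 for Epha10 and 24 for Ephb2. The windows of Epha10 and Ephb2 lie within their annotated gene spans and are not shown. CG reads the same on both strands, and its letters overlap with no other motif counted here. Of the 1067 genes with both a window and a score, 97.5% held at least 1 CG, with a median of 15. The median was 17 in the 886 genes that were early in every profile and 3 in the 145 that were late in every profile. At least 28 CG steps, the number in Epha7, stood in 19.96% of all windows, in 21.8% of the early ones and in 11.0% (16 genes) of the late ones. Epha7 thus lay above the upper quartile of late genes, which was 10, and above the median of early ones. Epha2 lay below the early median, and only 0.469% of all windows held as many as Epha8.

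Epha7 replicated late and the other 4 Eph genes early, in every profile of both genotypes. Epha7 encodes a receptor known from the patterning of the developing brain, and it spans 154438 bases at chr4:28813066-28967503. It scored -2.08 and -2.12 in the control profiles against -1.88 and -1.71 in the deletion profiles. All 4 values lay well below 0, and both deletion values lay above both control values. The control mean of -2.10 ± 0.024 (SD, n = 2) stood at percentile 7.23 of all measured genes, ordered from late to early. Over all genes, 16.6% were late in every profile, so a late gene is the less usual state on this chromosome.

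The 4 early genes stood closer together. Epha2, whose receptor is known from epithelia, scored 2.01 and 2.11 in the control profiles against 2.36 and 2.38 in the deletion profiles (chr4:141301221-141329384). Epha8, known from axon guidance in the midbrain, scored 2.42 and 2.58 in the control profiles against 2.81 and 2.80 in the deletion profiles (chr4:136929419-136956859). As deposited, in both genes the deletion values lay above the control values, and the deletion replicates differed by less than the control replicates. Both statements depend on centring. The deletion profiles differed in their medians over bins, at -0.73 and -0.21, and after median centring neither gene lay above without overlap. Epha10 encodes a receptor whose kinase domain is thought to be inactive (chr4:124881530-124917801). It scored 2.67 and 3.02 in the control profiles against 2.72 and 3.01 in the deletion profiles, so its genotypes overlapped and its replicates differed more than its genotypes did. Ephb2, the only EphB gene of the set, is known from axon guidance, synapses and the intestinal crypt (chr4:136647536-136836326). It scored 2.93 and 3.04 in the control profiles against 3.07 and 3.23 in the deletion profiles, a narrow gap between the genotypes.

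**Figure D1:**
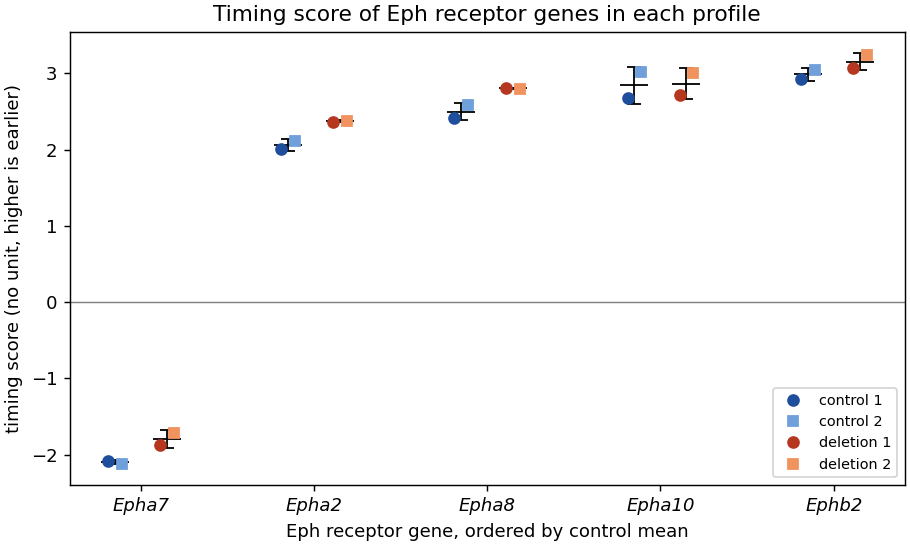
Timing score without unit, on the vertical axis, of each Eph receptor gene in each profile; dashes and bars are the group mean and SD (n = 2). Epha7 sits between -2.12 and -1.71, and the other 4 genes sit between 2.01 and 3.23.

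In control cells the order from late to early was Epha7, Epha2, Epha8, Epha10 and Ephb2, at -2.10 ± 0.024, 2.06 ± 0.077, 2.498 ± 0.11, 2.84 ± 0.24 and 2.99 ± 0.084 (SD, n = 2 each). The means of Epha10 and Ephb2 did not differ beyond the spread of Epha10, although Ephb2 was the earlier gene in each profile of both genotypes. In deletion cells the means were -1.80 ± 0.12, 2.37 ± 0.013, 2.80 ± 0.0079, 2.86 ± 0.21 and 3.15 ± 0.11 in the same order (SD, n = 2 each). There Epha8 and Epha10 did not differ beyond the spread, and Epha8 was the earlier gene in deletion 1 and the later in deletion 2. Among all genes, the control means stood at percentiles 35.5 for Epha2, 50.5 for Epha8, 72.1 for Epha10 and 82.5 for Ephb2. Beside a median of 2.49 over all genes in control cells, Epha8 was near the middle, and Epha2 was on the later side although it is early.

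Gene content around the 5 genes varied widely. It was counted as the other protein-coding genes in the 2 Mb centred on each gene. Epha7 had 0, Epha10 had 20, Epha8 had 33, Ephb2 had 38 and Epha2 had 39, beside a median of 30 over all measured genes. The nearest protein-coding genes of Epha7 were Manea, 2.47 Mb below it, and Map3k7, 2.996 Mb above it. Manea encodes an endomannosidase of the Golgi, and Map3k7 encodes the kinase TAK1. Manea was also late, at -2.39 ± 0.50 in control cells, and Map3k7 was early, at 0.95 ± 0.032 (SD, n = 2 each). Epha10, by contrast, is packed between Maneal and Cdca8, with gaps of 0.591 and 0.663 kb. Maneal is a relative of Manea, and Cdca8 encodes a subunit of the chromosomal passenger complex. They scored 2.89 and 2.87 in control cells, almost as Epha10 did, but genes this close share bins, and adjacent bins have similar scores.

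By the rule of the median over genes, Epha7 and Epha10 counted as gene-poor and the other 3 as gene-rich. The mean score of gene-rich minus gene-poor members was 2.16 and 2.13 in the control profiles against 2.33 and 2.16 in the deletion profiles. The same contrast over all genes, 679 gene-rich and 622 gene-poor, was 1.35 and 1.34 in the control profiles against 1.29 and 1.22 in the deletion profiles. In the Eph set the contrast rests on Epha7 alone. With Epha7 left out, a choice made after its value was seen, Epha10 was the only gene-poor member, and the contrast was -0.33 ± 0.15 in control and -0.088 ± 0.17 with the deletion (SD, n = 2 each). Which of the early genes counted as gene-poor also changed with the width of the surroundings. Epha8 and Ephb2 fell below the median with 1 Mb, and Epha2 fell below it with 4 Mb, while Epha7 had 0 neighbours at each width. The change of the contrast between genotypes was 0.099, from 2.14 ± 0.019 for control to 2.24 ± 0.12 for deletion profiles (SD, n = 2 each), within the spread of the profiles. Its exact permutation p, two-sided, was 0.667, and no p under 0.3333 is possible with 2 profiles a group. Its sign turned with 1 Mb or 4 Mb surroundings.

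**Figure D2:**
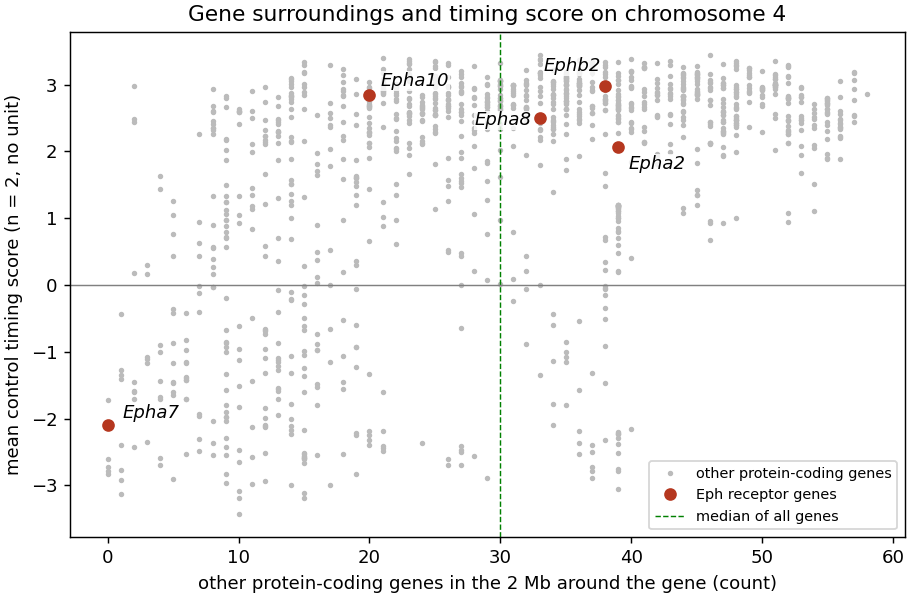
Mean control timing score (vertical axis, no unit, n = 2) against the number of other protein-coding genes in the surrounding 2 Mb, for 1301 genes of chromosome 4, with the Eph genes in red and the median count of 30 as a dashed line. Epha7 stands at 0 neighbours and -2.10, and the other 4 stand above 2 at 20 to 39 neighbours.

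Epha7 was 1 of 6 genes on the chromosome with no other protein-coding gene in its 2 Mb. The others were Lingo2, Cylc2, Brinp1, Ptprd and Tusc1, named after their values were seen. All 6 were late in every profile. The control means were -2.73 for Lingo2, -2.78 for Cylc2, -2.84 for Brinp1, -2.61 for Ptprd and -1.73 for Tusc1, so Epha7 was later than Tusc1 and earlier than the other 4. Among the 23 genes with at most 2 neighbours, 19 were late and 3 were early in every profile. Of the 254 genes with 20 to 29 neighbours, the class of Epha10, 90.6% were early in every profile, and of the 325 with 30 to 39 neighbours, the class of Epha2, Epha8 and Ephb2, 84.3% were. Epha7 is also long. Of the 79 genes at least as long, 34 were late in every profile (43.0%). Ephb2 is longer still, at 188791 bases, and was the earliest of the 5 genes.

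The genes also differed in their place within a timing domain, taken as the run of bins in which the mean control score kept its sign. A run also ended at a position without a score, so an edge need not be a change of sign. Epha7 lay in a late run of 9.35 Mb, with 6.26 Mb of it below the gene and 2.93 Mb above. Epha10 lay in an early run of 4.95 Mb. Epha2, Epha8 and Ephb2 lay in the same early run of 10.9 Mb, where Epha2 was nearest to an edge, at 1.201 Mb. Over the surrounding 2 Mb, 0% of bins scored above 0 in control cells around Epha7 and 100% did around each of the other 4.

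Local position within these runs was not the same either. Epha2 lay in a dip, where gene minus 2 Mb window was -0.74 ± 0.082 in control and -0.40 ± 0.19 with the deletion (SD, n = 2 each). For Epha8 that difference was -0.32 ± 0.048 in control and -0.029 ± 0.25 with the deletion (SD, n = 2 each). Its sign differed between the deletion profiles, at 0.15 and -0.21. Epha7 was earlier than its own late window, by 0.47 ± 0.050 in control and by 0.55 ± 0.059 with the deletion (SD, n = 2 each). The gene lies on the flank of a rise in the late domain. The highest point within 1 Mb of the gene was -1.31 and -1.67 in the control profiles against -0.82 and -1.002 in the deletion profiles. It lay 72.5, 47.5, 122 and 72.5 kb beyond the gene's higher-coordinate end in the same order, which is the 3′ side. Even this peak stayed below 0 in every profile.

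**Figure D3:**
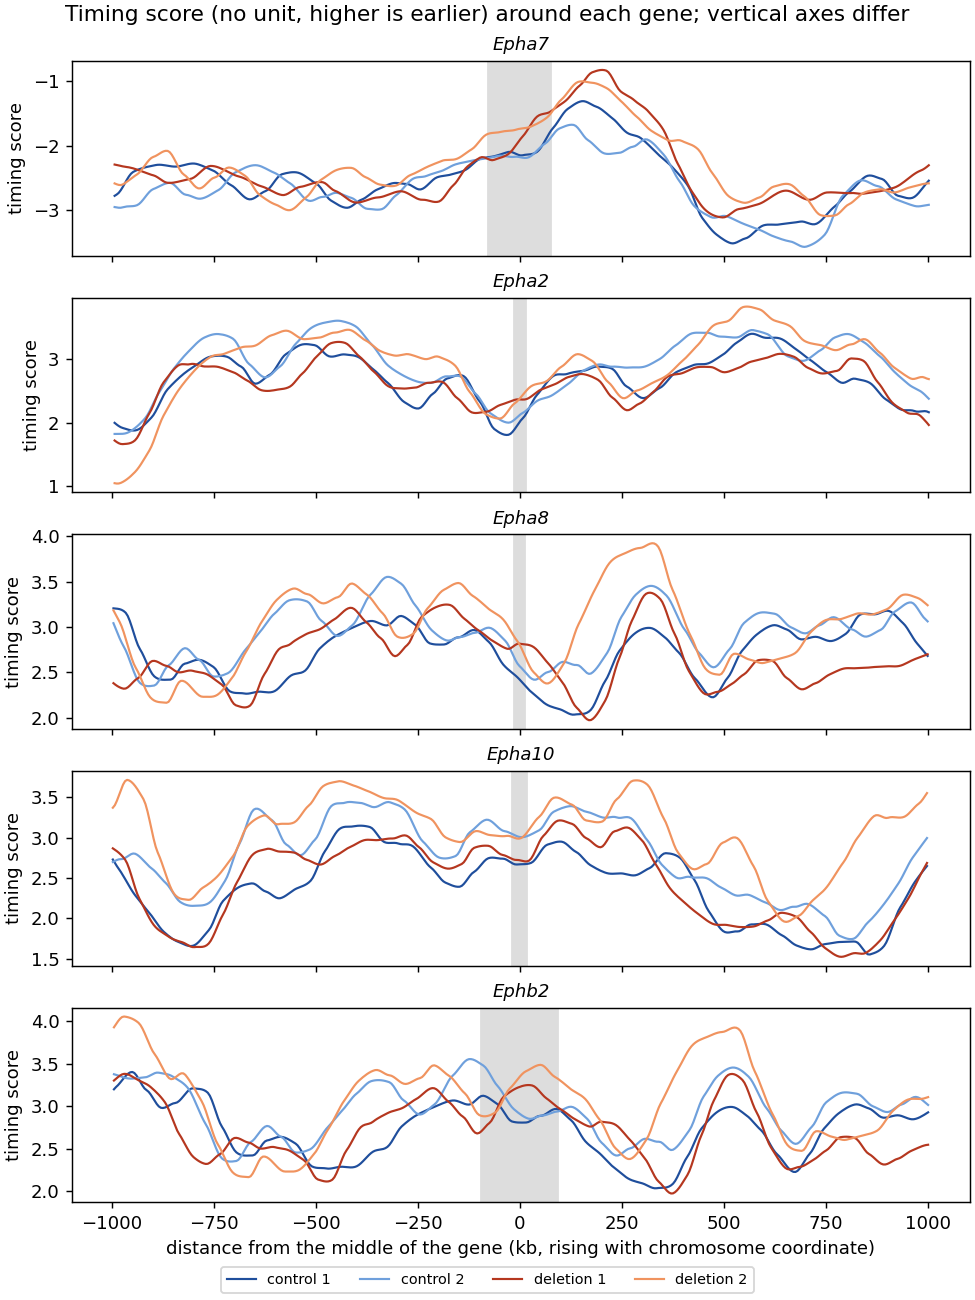
Timing score (vertical axes, no unit, with different ranges) against distance in kb from the middle of each gene, for the 4 profiles, with the gene in grey. The rise beside Epha7 reaches -0.82 in deletion 1 and -1.31 in control 1, and Epha2 lies in a local dip.

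Deletion and control profiles were then compared gene by gene. The deletion profiles were higher in 4 of the 5 Eph genes without overlap between genotypes, Epha2, Epha7, Epha8 and Ephb2, and Epha10 overlapped. No Eph gene passed the test. By limma, 0 of 5 members and 0 of 1301 genes were called (0%), with 17 of all genes and 0 members at an unadjusted p under 0.05. The counts over all genes changed when single profiles were left out, with 2 at an unadjusted p under 0.05 when control replicate 1 was left out, and 4 called and 182 at that p when deletion replicate 1 was. Over all genes, 196 (15.1%) had both deletion profiles higher than both controls, and 85 (6.53%) had both lower. Epha8 and Ephb2 are 93.1 kb apart in the same early run, so the 4 cannot be counted as independent of each other. Which profiles lie above which also depends on centring, since the profiles differed in their medians over bins. These were -0.79 and -0.37 in the control profiles against -0.73 and -0.21 in the deletion profiles. Replicate 2 was thus above replicate 1 in both groups, and deletion 1 was below control 2. The median difference, deletion minus control, was 0.16 over all bins and 0.14 over all genes. After each profile was centred on its median over bins, 0 of the 5 genes lay above without overlap, beside 17.8% of all genes, and after centring on the median over genes 3 did, Epha2, Epha7 and Epha8, beside 18.3%. Centring on genes also put Epha10 below both controls without overlap, beside 14.1% of all genes, as did quantile normalization, beside 19%.

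The differences of Epha2, Epha7 and Epha8 were nearly equal, at 0.31 (SE 0.34), 0.31 (SE 0.34) and 0.30 (SE 0.34). Relative to the median over all bins they were 0.16, 0.15 and 0.15. They stood at percentiles 77.3, 76.6 and 76.3 of all genes, so they lay in the upper part of the range without standing apart from it. Ephb2 differed by 0.17 (SE 0.34), or 0.012 relative to the bins' median. Epha10 differed by 0.019 (SE 0.34), or -0.14 relative to that median, and its sign turned negative under each centring. The median over the 5 genes was 0.30, beside 0.14 over all genes. The limma adjusted p was 0.999 for each of the 5, and the exact two-sided permutation p was 0.3333 for Epha2, Epha7, Epha8 and Ephb2, the smallest that these profiles allow, and 1 for Epha10. The SEs exceed what the replicates of a single gene show, because limma moderates each gene's spread toward a value common to all genes, here an SD of 0.348. Each of these differences is smaller than its SE, and the lack of calls does not show that the timing was the same.

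**Figure D4:**
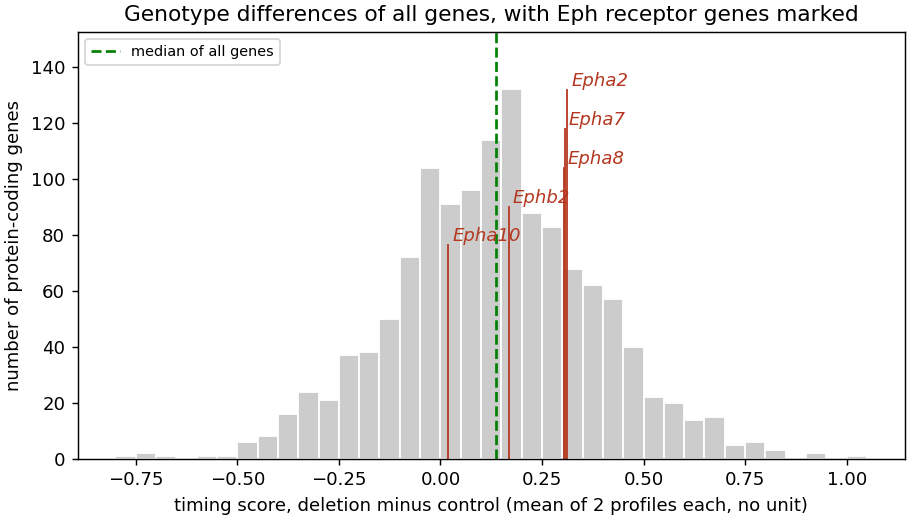
Number of protein-coding genes (vertical axis) by timing score difference, deletion minus control (horizontal axis, no unit), with the median of 0.14 dashed and the Eph genes as red lines. Epha2, Epha7 and Epha8 stand together at 0.30 to 0.31, and Epha10 stands at 0.019.

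The extent of the differences along the chromosome was not the same for these genes. Around Epha2 and Epha8 they were local on the scale of 2 Mb. The 2 Mb window of Epha2 differed by -0.027 and that of Epha8 by 0.015, and both windows overlapped between genotypes. Bins in which both deletion profiles lay above both controls ran over 110 kb around Epha2 and 70 kb around Epha8. At Epha2 the direct neighbours Arhgef19 and Fam131c differed by 0.11 each and overlapped. The direct neighbours of Epha8 differed by 0.19 each and overlapped, beside a median of 0.14 over all genes. Over the whole chromosome 16.03% of bins had both deletion profiles above both controls, and 5.86% had both below.

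Around Epha7 the bins with both deletion profiles above both controls extended further. The 2 Mb window differed by 0.23, or by 0.069 relative to the median difference over all bins. Its control scores of -2.52 and -2.62 and deletion scores of -2.38 and -2.30 did not overlap as deposited, without centring. Within the gene, 20 of the 32 bins had both deletion profiles above both controls, 12 overlapped and 0 had the opposite order. From chr4:28870000 the run went on for 510 kb, to 29379999, 412 kb beyond the gene. The run was chosen with its values in view and has no test. Its mean was -2.11 ± 0.11 for control and -1.64 ± 0.055 for deletion profiles (SD, n = 2 each), and its largest single-bin difference was 0.84. After median centring its difference was 0.37 and the genotypes overlapped. Map3k7, the next gene above, was also higher in both deletion profiles, by 0.35. Manea, the next gene below, differed by 0.35 as well, but its genotypes overlapped. Of the 6 genes without neighbours 3 had this order, Epha7, Lingo2 and Brinp1, beside 15.1% of all genes. Tusc1 had the opposite order, beside 6.53% of all genes, and Cylc2 and Ptprd overlapped.

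Ephb2 held differences of both signs, which its mean hides. The mean difference changed sign at a single point along its 39 bins, chosen after the values were seen. Both deletion profiles lay below both controls in 9 bins and above both in 27, and the 3 bins around the change of sign overlapped. Over the whole chromosome, 5.86% of bins lay below in this way and 16.03% above. Adjacent bins had similar scores, so the 39 bins are not separate observations. The 55 kb at lower coordinates, the 3′ part of this minus-strand gene, scored 3.06 and 3.34 in the control profiles against 2.86 and 2.92 in the deletion profiles. The other 140 kb, with the 5′ end, scored 2.87 and 2.93 in the control profiles against 3.15 and 3.36 in the deletion profiles. Averaged over each part the genotypes did not overlap, and the order was opposite. The differences were -0.31 and 0.36 as deposited and -0.42 and 0.25 after median centring, when the lower part still did not overlap and the upper part did. Lactbl1, 9.43 kb below Ephb2, was lower in both deletion profiles, by -0.46, and C1qb, 43.8 kb above it and a gene for a complement subunit, differed by 0.15 with overlap. In Epha10 all 8 bins overlapped, and single-bin differences were between 0.0089 and 0.039.

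**Figure D5:**
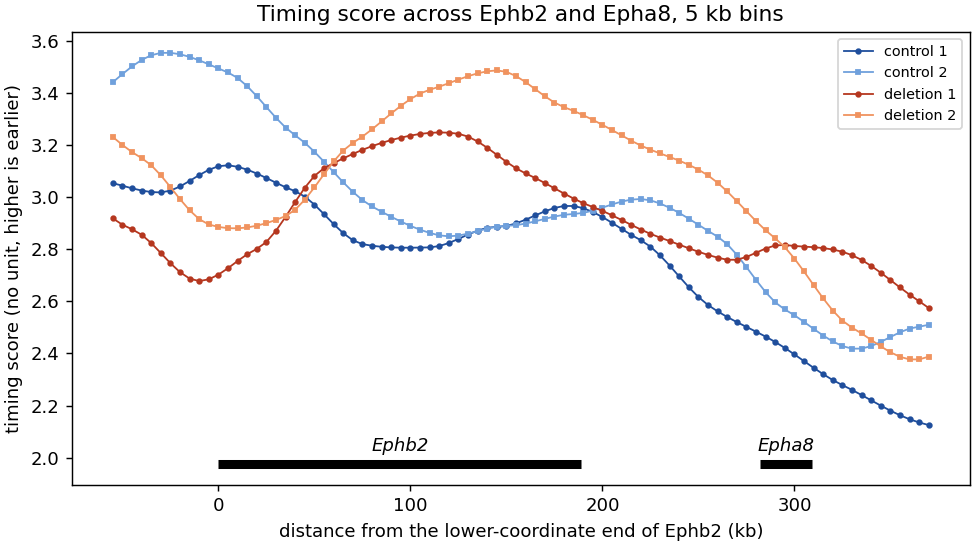
Timing score (vertical axis, no unit) in 5 kb bins against distance in kb from the lower-coordinate end of Ephb2, for the 4 profiles, with Ephb2 and Epha8 as black bars. Both deletion profiles lie below both controls in 9 bins at the left end of Ephb2 and above both in the 27 bins at its right end, and the genotypes overlap in the 3 bins between.

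Genes with the most similar timing were sought among 1109 protein-coding genes more than 2 Mb from every Eph gene, by the root mean square difference over the 4 profiles. Among the closest were Vcp (0.087) for Epha2, Acap3 (0.077) and Pusl1 (0.085) for Epha8, Ube2r2 (0.057) and Pik3cd (0.065) for Epha10, and Rnf220 (0.057) and Txndc12 (0.069) for Ephb2. Epha7 had no match as close, with Pramel5 at 0.18 and Cpne3 at 0.23. Fewer genes are late, with 216 of 1301 late in every profile beside 1037 early, so these distances do not set Epha7 apart. Pramel5, of a germline gene family, has 40 neighbours and is an exception in such surroundings. Of the 354 genes with 40 to 58 neighbours, 353 were early in every profile and 1, Pramel5, was late in every profile.

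Further genes of Eph signalling on the chromosome were early throughout. Of 10 genes for proteins linked to Eph receptors or their downstream small GTPase, Src and PI3 kinase signalling, 10 scored above 0 in every profile, beside 79.7% of all genes. The median of the 10 was 2.21 for control and 2.16 for deletion profiles. Cdc42, a small GTPase that controls the actin cytoskeleton, scored 2.87 ± 0.27 without and 2.96 ± 0.31 with the deletion (SD, n = 2 each). Lyn, a Src family kinase, was the latest of the list, at 1.30 ± 0.29 and 1.57 ± 0.30 (SD, n = 2 each), and it has 13 neighbours. Arhgef16, a guanine nucleotide exchange factor of the ephexin family, was higher in both deletion profiles, at 1.89 ± 0.079 and 2.16 ± 0.035 (SD, n = 2 each). Lck, a Src family kinase of lymphocytes, was lower in both, at 2.37 ± 0.15 and 2.10 ± 0.10 (SD, n = 2 each). The other 8, including Shb, Fgr, Wasf2, Arhgef19, Pik3cd and Pik3r3, overlapped. Among all genes, 15.1% were higher in both deletion profiles and 6.53% were lower in both. By limma 0 of the 10 were called in either direction, with 0 at an unadjusted p under 0.05, and the median difference was 0.085.

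Other receptor tyrosine kinases on the chromosome were also split between early and late. Tek, the endothelial receptor for angiopoietins, and its relative Tie1 were early, at 1.33 ± 0.25 and 2.51 ± 0.17 in control cells (SD, n = 2 each). Musk, the receptor of the neuromuscular junction, and Ror1, a Wnt receptor, were late, at -1.79 ± 0.53 and -1.12 ± 0.53 (SD, n = 2 each). In deletion cells they scored 1.51, 2.58, -1.59 and -1.52 in the same order. All 4 overlapped between genotypes and 0 were called by limma, with 0 at an unadjusted p under 0.05. Of all 1301 genes, 15.1% were higher and 6.53% lower in both deletion profiles. Limma called 0 of them, with 17 at an unadjusted p under 0.05. In every profile 79.7% of all genes were early and 16.6% late, so 4 genes show little about such kinases. The control mean of Epha7 lay below those of Musk and Ror1. It was within the spread of Musk, which was the later gene in control 1, at -2.17 beside -2.08 for Epha7. As deposited, the control replicates of Epha7 differed by less than those of Musk or Ror1. The control profiles also differed in their medians over bins, at -0.79 and -0.37, and replicate gaps were not compared after centring.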

How the data were processed

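The authors deposited 1 table of replication timing scores for chromosome 4 at steps of 5 kb, with a column for each of 4 profiles, scaled to a common interquartile range per the file headers and name. Bowtie2, SAMtools, bedtools and mm10 are named in the submitters' processing notes. The sources used here give no versions, log base, smoothing or bin filter. The scores were used as deposited.

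The 30659 positions with a value in all profiles were kept, each read as the start of its bin. Genes, strands and starts came from RefSeq tables of GRCm38.p6. Genotypes were compared over all 1301 measured genes with limma 3.58.1 in R 4.3.3 (two-sided, Benjamini-Hochberg over all genes, threshold 0.05), and single values by exact permutation over the 4 profiles. The fit was tested on simulated data.

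Named were the 5 genes, their adjacent genes, the 2 genes nearest in score, both signalling lists and Klf4; 1 gene that this rule names is not reported here. Genes and lists were chosen with earlier results of these data known. Alternatives were other centring or quantile normalization, the replicate number as a block, limma's trend and robust options, 50 kb flanks, the start bin alone, positions as bin ends, 1 and 4 Mb surroundings, and each profile left out. Centring on genes, another limit for gene-poor, leaving out Epha7, and the settings for the count of members above both controls were added after the data were seen.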

Additional observations from a re-analysis of the deposited data

How the results depend on the processing

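Epha2, Epha7, Epha8 and Ephb2 kept a positive difference under all 12 alternatives, at 0.13 to 0.37, 0.17 to 0.39, 0.16 to 0.38 and 0.014 to 0.25, and limma called none of the 5 members (adjusted p 0.499 to 0.9997). The difference of Epha10 turned to -0.091 with median centring, -0.14 with quantile normalization and -0.075 with centring on genes, and ranged from -0.15 to 0.19 with single profiles left out, negative without control replicate 1 (-0.15) and without deletion replicate 2 (-0.13). Of all genes, 0 to 4 were called with single profiles left out, the 4 without deletion replicate 1, which leaves 1 deletion profile assumed to vary as the controls do, and 0 under each other alternative. The members above both controls numbered 0 with median centring, 0 with quantile normalization and 3 or 4 otherwise, and Epha10 lay below both with quantile normalization and with centring on genes. Genes at an unadjusted p below 0.05 by limma, 17 as reported, numbered 40, 52 and 46 with median centring, quantile normalization and centring on genes, 28 with limma's trend and robust options, and 2 to 182 with single profiles left out. Gene-rich minus gene-poor was 1.28 with 1 Mb, 2.72 with 4 Mb, 4.65 when gene-poor meant under 14 neighbours, the median of 2 Mb windows (Epha7 alone), and -0.21 without Epha7. Its change between genotypes was -0.094, -0.14 and -0.10 under the first 3 of these. The number of early members was 4 under each of its 10 alternatives.

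With the replicate number as a block, limma called 0 genes (165 had an unadjusted p below 0.05), and Epha2, Epha7, Epha8, Epha10 and Ephb2 had adjusted p of 0.499, 0.517, 0.517, 0.977 and 0.749 by limma, with unchanged differences such as 0.31 for Epha2. The deviations of same-numbered profiles from their group means correlated at 0.64 over bins, but the labels state no pairing. Unknown depth limits all of these values.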
